A study of Mus musculus with 12 samples.

Results

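The genes described here encode cytokines, chemokines and their receptors, and they were chosen by name: Ccl, Cxcl, Ccr, Cxcr and Il followed by a digit, Tnfrsf and Tnfsf, Tnf, Ifna, Ifnb, Ifng and Ifnl, Tgfb1 to Tgfb3, Tgfbr1 to Tgfbr3, Lif and Lifr. These names matched 178 of the 33622 m6A peaks listed for wild-type (WT) hippocampus, in 86 genes, and 180 of the 34935 peaks listed for Tyrobp-/- hippocampus, in 89 genes. Together the lists held 97 such genes, of 17744 genes with a peak in either list. The names also caught 6 genes that are not secreted cytokines or their receptors: Il1rapl1 and Il1rapl2, synaptic adhesion proteins, Il4i1, an amino acid oxidase, Il18bp, a soluble inhibitor of IL-18, Il1bos, a noncoding transcript opposite Il1b, and Tnfsfm13, a readthrough of Tnfsf12 and Tnfsf13.

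Both groups were male C57BL/6 mice aged 6 months. Tyrobp-/- mice carried a TALEN-made deletion in exon 2 of Tyrobp, the adaptor through which TREM2 and related receptors of microglia signal, and WT mice were their littermates. For each genotype 3 samples were sequenced, each the hippocampal RNA of 3 mice, and each sample gave an anti-m6A immunoprecipitated (IP) and an input library. The authors called peaks on the 3 samples of a genotype together, so each peak has 1 fold enrichment (reads of IP over input) and 1 false discovery rate (FDR) per genotype, with no replicate error. Differences between genotypes are therefore given as values, without a test, and counts among the genes named are set beside the same count over all peaks.

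Cytokines are secreted signals, and chemokines are the small cytokines that guide migrating cells through receptors coupled to G proteins. Most interleukin and interferon receptors pair a chain that binds the ligand with a shared signalling chain and act through JAK kinases and STAT factors, while receptors for IL-1 and TNF act through adaptors on NF-kB, and TGF-beta receptors act through SMAD proteins. In the hippocampus these proteins are shared out among microglia, astrocytes, neurons and vessels. The mark m6A, a methyl group on adenosine, is placed mostly near stop codons and in 3′ UTRs, and it influences how long a transcript lasts and how it is translated.

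The 12 libraries held 61189368 to 73554506 valid reads each. The GC content of IP libraries was 49.7% ± 0.541 (SD, n = 3) in WT and 48.9% ± 0.442 (SD, n = 3) in Tyrobp-/- samples. Between libraries of the same replicate number it was lower in Tyrobp-/- each time, by 0.91, 0.70 and 0.72 percentage points. Q30, the share of bases read with high certainty, was 92.2% to 92.4% in replicate 2 of all groups and 95% to 95.6% in the other libraries. The part of either in the ratios below was not tested. Tyrobp had 0 peaks in either list, so the lists do not check the genotype. Markers of hippocampal neurons had a listed peak for 7 of 8 genes in WT and 8 of 8 in Tyrobp-/- mice, and those of microglia for 9 and 10 of 12. T cell markers had a peak for 2 and 1 of 5 genes. A peak needs reads in the input, so a gene without a listed peak is not thereby shown to be unmethylated, and in bulk tissue fewer cells of a type and less RNA per cell cannot be told apart.

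Peaks were listed for most interleukin, TNF and interferon receptor genes and for a minority of the ligand genes. RefSeq holds 201 protein-coding genes that match the names, and 96 of them (47.8%) had a peak in either list, against 62.0% of all 21896 protein-coding symbols. Interleukin receptors had a peak for 32 of 41 genes, TNF receptors for 14 of 20 and chemokine receptors for 8 of 17, and all 5 interferon receptors were listed. Among ligands the counts were 13 of 42 for interleukins and related factors, 5 of 13 for the TNF family and 12 of 37 for chemokines, and none of the 18 interferons had a peak. The classic inflammatory signals Tnf, Il1a, Il1b, Il6, Il10, Ccl2, Ccl4 and Ifng were listed in neither genotype, and neither was Tgfbr1, the type I receptor of TGF-beta. All 3 TGF-beta ligands were listed, as were Lif and Lifr.

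**Figure D1:**
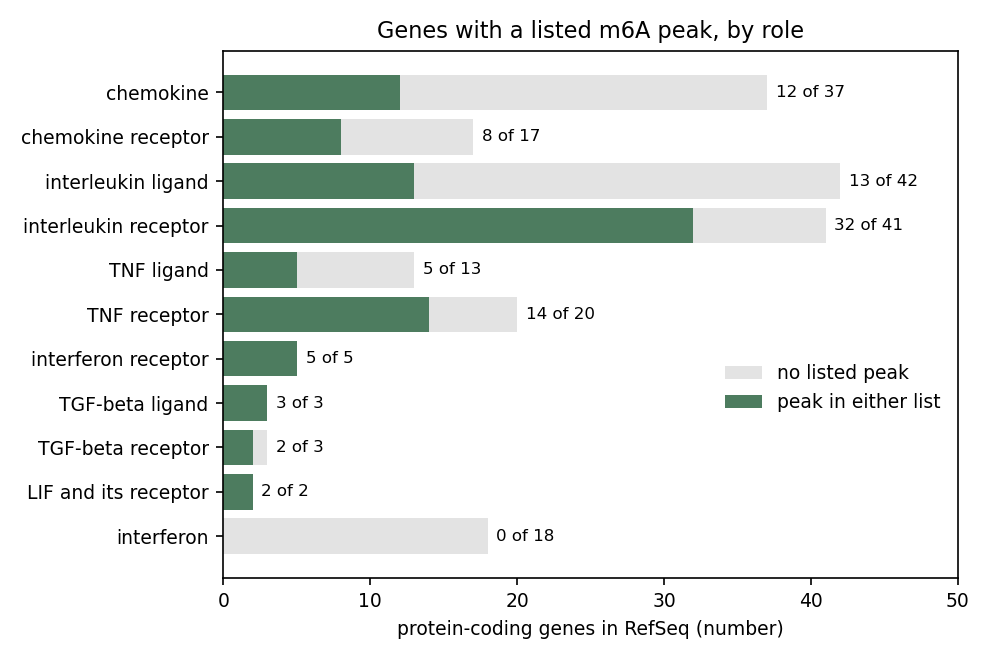
Bars give the number of protein-coding genes in RefSeq whose names match, by role, with the genes that had a peak in either list in green and the rest in grey. Interleukin receptors were listed for 32 of 41 genes and interleukin ligands for 13 of 42, and no interferon gene was listed.

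Peaks of these genes lay mostly in 3′ UTRs. In the WT list 120 of 178 peaks (67.4%, exact 95% binomial interval 60.0% to 74.2%) were annotated to a 3′ UTR, against 47.2% of all peaks and 53.4% of the peaks of protein-coding genes. In the Tyrobp-/- list the share was 121 of 180 (67.2%, interval 59.8% to 74.0%), against 49.3% and 56.0%. Exons outside UTRs held 16.3% of the WT and 17.8% of the Tyrobp-/- peaks. The shares were 33.9% and 33.3% of all peaks, and 25.2% and 24.4% of the peaks of protein-coding genes. Intervals cover counting error only, and peaks of 1 gene are not independent of each other.

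**Figure D2:**
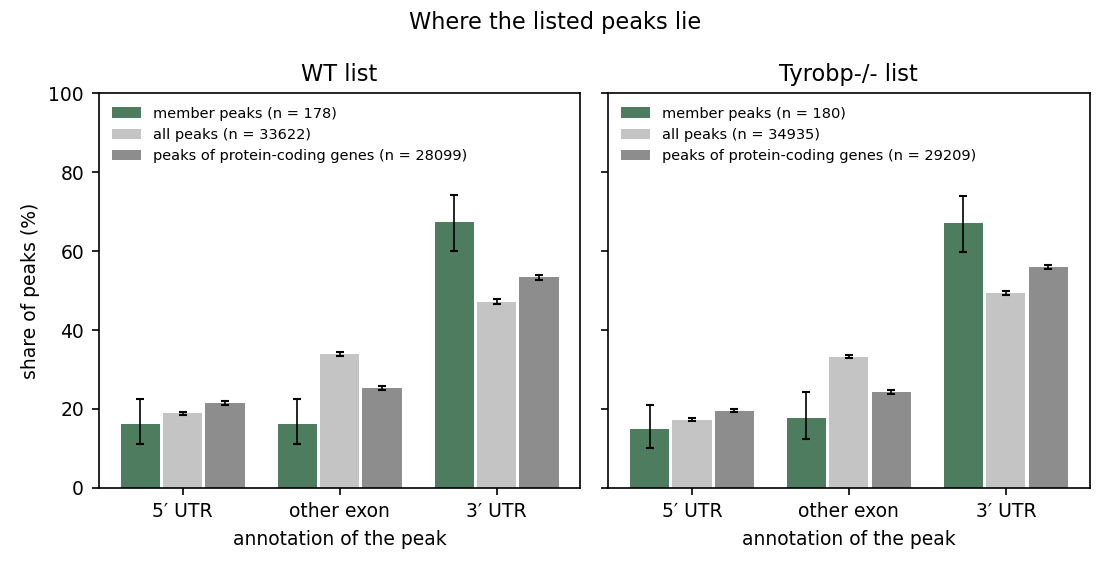
Bars give the share of peaks (%) by annotation in the WT list (left) and the Tyrobp-/- list (right), for the peaks of the named genes (green), all peaks (light grey) and peaks of protein-coding genes (dark grey), with exact 95% binomial intervals. The 3′ UTR share of the named genes was 67.4% and 67.2%, above both grey bars in each list.

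Member peaks were slightly higher and less certain than peaks in general. Their median fold enrichment was 6.84 in WT (quartiles 3.63 and 10.1) and 6.67 in Tyrobp-/- (quartiles 4.16 and 10.8), where all peaks had 5.54 and 5.72. An FDR below 1e-05 was reached by 56.2% of the member peaks in WT and 58.9% in Tyrobp-/-, against 64.4% and 63.3% of all peaks. Some fold enrichments recur: 6.84 was given to 1281 WT peaks, 15 of them of these genes, at a median FDR of 0.275, and 6.67 was given to 1361 Tyrobp-/- peaks, 9 of them of these genes, at a median FDR of 0.290. These most frequent values are also the medians of the member peaks. Of the 97 genes 32 had at least 3 peaks in a list, and 24 had 1 peak in each.

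The 2 lists held mostly the same genes. A peak in both was listed for 78 of 97 genes (80.4%), beside 79.9% over all genes. Member peaks shared at least 1 base of their span with the other list in 75.3% of cases in WT and 75.6% in Tyrobp-/-, where all peaks did so in 80.0% and 77.9%. Peaks in the WT list alone were held by Ccl1, Ccl3, Ccl27b, Cxcr3, Il11, Il23a, Tnfsf9 and Tnfsf11, and peaks in the Tyrobp-/- list alone by Ccl11, Ccl12, Ccr7, Cxcl1, Cxcl16, Cxcr5, Il22, Il22ra1, Il2rg, Il31ra and Tnfrsf10b. For 18 of these 19 genes the lowest FDR was 1e-05 or more, and for 9 it was 0.05 or more.

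The exception was Tnfsf9, the 4-1BB ligand that co-stimulates T cells, with a 3′ UTR peak of 24.4 in WT at an FDR of 7.94e-15 (chr17:57106254-57107727). That stretch overlapped a Tyrobp-/- peak of 45.7 assigned to another gene, Gm11110, so its absence under the name Tnfsf9 is not an absence of signal there. The next highest values of the WT list alone were 9.77 for Il23a (IL-23 subunit, FDR 0.0282) and 8.79 for Cxcr3 (receptor on T cells, FDR 0.00646). Then came 7.81 for Ccl1 (FDR 0.162) and 6.84 for Tnfsf11 (RANKL, FDR 0.275). These values are among those that recur in the WT list. In the Tyrobp-/- list alone the highest values were 17.2 for Il22, 13.3 for Cxcl16, a transmembrane chemokine, and 11.4 for Cxcr5, which guides B cells. Il22ra1 and Tnfrsf10b followed at 9.53 each (FDR 0.0309 for both). The Cxcl16 peak lay across the neighbouring gene Zmynd15. Il22ra1 encodes a receptor chain for IL-22. The Il22 peak of 17.2 had an FDR of 0.000295, and the other Il22 peak, of 11.4, had an FDR of 4.9e-05.

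To compare genotypes, peaks of the same gene were paired where their exonic bases overlapped. This gave 121 pairs in 73 member genes and 23683 pairs in the series. The median log2 ratio of fold enrichment, Tyrobp-/- over WT, was 0.07 for member pairs (quartiles -0.32 and 0.47) and 0.05 for all pairs (quartiles -0.28 and 0.39). At least 2-fold higher in Tyrobp-/- mice were 11 of 121 member pairs (9.09%), with 6.92% over all pairs, and at least 2-fold lower were 12 (9.92%), with 6.06% over all pairs. With so few pairs these counts are read as descriptions only.

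**Figure D3:**
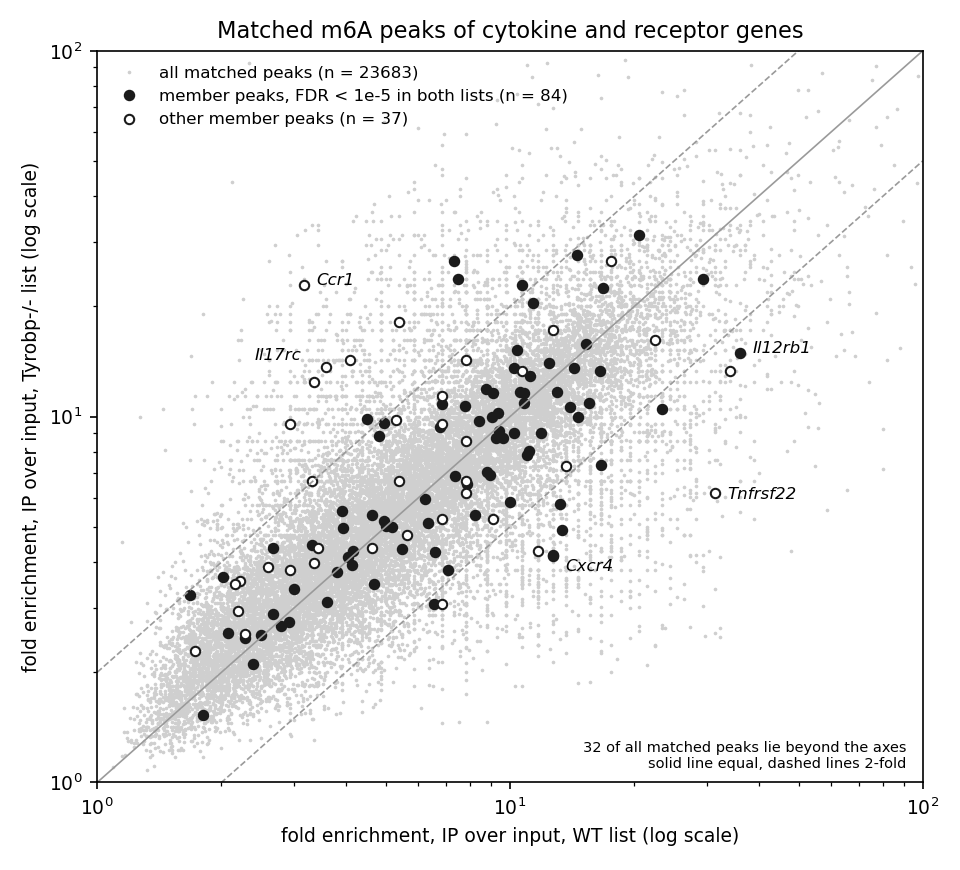
Each point is a matched peak, with its fold enrichment in the WT list on the x axis and in the Tyrobp-/- list on the y axis, both on log scales; grey points are all 23683 pairs, filled points the 84 member pairs with an FDR below 1e-05 in both lists and open points the other 37. Most member pairs lie between the dashed 2-fold lines, with 11 above and 12 below them.

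Of the 84 member pairs with an FDR below 1e-05 in both lists, 4 were at least 2-fold higher in Tyrobp-/- mice (4.76%, with 4.45% over all such pairs) and 8 were at least 2-fold lower (9.52%, with 3.4%). The 4 were Il4i1, Il16, Tnfrsf25 and a 3′ UTR peak of Lif. The 8 were Il1r2, Cxcr4, Tnfrsf1b, Il12rb1, Il21r, Il15ra, Il17d and Tgfb1. When both peaks also had to share at least 50% of the exonic bases of the longer, a condition chosen after seeing the data, Il16 was the 1 higher pair left (4.01% over all such pairs), and the same 8 were lower (2.8% over all such pairs).

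**Figure D4:**
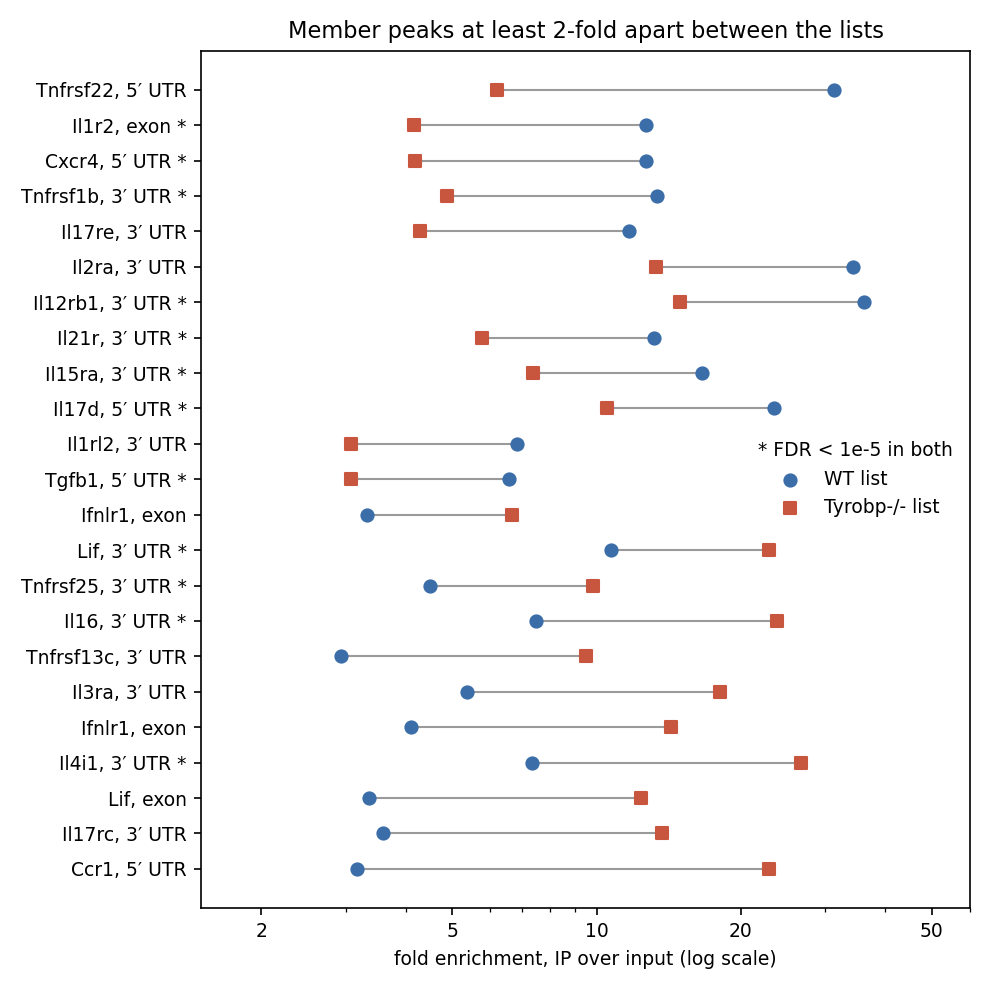
Rows are the 23 member peaks at least 2-fold apart, with the annotation of the WT peak; circles give the fold enrichment in the WT list and squares in the Tyrobp-/- list, on a log scale, and stars mark an FDR below 1e-05 in both. Peaks lower in Tyrobp-/- mice stand at the top and reach from 6.56 to 36.1 in WT, and those higher stand below and reach from 6.67 to 26.7 in Tyrobp-/- mice.

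Chemokines had no pair past 2-fold, where 13% of all pairs were, and their 9 pairs ran from -0.48 to 0.88 on the log2 scale. With 9 pairs this is a description only. Cxcl12, which holds CXCR4-bearing cells in place, had 3′ UTR peaks of 11.0 in WT and 7.87 in Tyrobp-/- (log2 ratio -0.48), and of 7.87 and 6.56 (-0.26). Ccl25, a chemokine of thymus and gut that binds CCR9, had a 5′ UTR peak of 5.3 in WT and 9.77 in Tyrobp-/- (0.88) and a 3′ UTR peak of 2.02 and 3.65 (0.85). Both Cxcl12 pairs were lower and both Ccl25 pairs were higher in Tyrobp-/- mice, each by less than 2-fold. Ccl27a, a chemokine of skin, had 3 pairs between -0.06 and 0.02, of which the 3′ UTR peaks lay within Il11ra1 as well. Its near-copy Ccl27b was listed at 5.86 in WT alone, and how reads of such copies were assigned is not known. Ccl17 stood at 4.64 and 4.38, and Ccl28 at 3.32 and 4.45.

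Among chemokine receptors, Cxcr4 and Ccr1 were furthest apart, in opposite directions. Cxcr4, the receptor of CXCL12, had a peak over its start and into its coding exon of 12.7 in WT (FDR 1e-28, chr1:128589206-128592293) and 4.19 in Tyrobp-/- (FDR 1e-13, chr1:128589532-128592293), a log2 ratio of -1.60. Toward the end of the same transcript it had small peaks of 2.17 and 2.22 in WT and 1 of 3.56 in Tyrobp-/-, paired at 0.68. Ccr1, an inflammatory chemokine receptor of myeloid cells, had a 5′ peak of 3.17 in WT (FDR 0.00851, chr9:123968394-123968603) and 22.9 in Tyrobp-/- (FDR 3.8e-08, chr9:123964330-123968692), the largest ratio of all member pairs at 2.85. The Tyrobp-/- peak took in 627 exonic bases and the WT peak 210, so the 2 values were not measured over the same bases. At the 3′ end Ccr1 ran the other way, with 9.12 in WT and 5.24 in Tyrobp-/- (-0.80). That pair also differed in extent, with 389 exonic bases in WT and 150 in Tyrobp-/-, where the FDR was 0.0562.

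The peaks of Cxcr4 in both lists and of Ccr1 in Tyrobp-/- mice reached the start of transcription, and the bases there are shown because these are the widest differences among chemokine receptors. Sequences are from RefSeq (GRCm38.p6), in the sense of the transcript, which is the minus strand for both, and capitals mark DRACH, the 5-base m6A consensus in which AC follows A or G, with A, G or T before and A, C or T after. Il15ra, described below and on the plus strand, is added as an example of a start covered in 1 list only. Its 5′ UTR peak there was 3.42 in WT at an FDR of 0.00794, and the Tyrobp-/- list held none. The starts of Cxcr3 and Tgfb2 were likewise covered in WT alone, and those of Tgfbr2 and Tnfsf13b in Tyrobp-/- alone. A further DRACH match under the same Il15ra peak is not shown.
Cxcr4: ggtagcagtgAAACCtctgaggcgt
Ccr1: tgagtcctagGAACAgctcattgtc
Il15ra: accaggaaagTGACCcgggtgtaga
They lie at chr1:128592253-128592277, chr9:123968667-123968691 and chr2:11705295-11705319. The Ccr1 stretch was inside the Tyrobp-/- peak and outside the WT peak, which ended at 123968603. DRACH was found in the sense strand of the first 50 transcribed bases at 5 of 10 member starts under a peak, and at 54.4% of all 32851 RefSeq starts. The shorter core GGAC was found at 0 of the 10 and at 18.9% of all. Such matches describe the letters and do not locate a methylated base, and the sequence under the other peaks was not read here.

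Ccr9, the receptor of CCL25, had the highest peaks of its class, but they overlapped each other and spread over 2 places: exonic peaks of 29.3 and 31.3 in WT and 23.8 in Tyrobp-/-, and a 5′ peak of 17.6 and 26.7 that lay within Slc6a20a. Ccr10 stood at 5.49 and 4.34, in a span it shares with Cntnap1.

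Interleukin receptors supplied 7 of the 12 lower pairs and 2 of the 11 higher ones, over 36 pairs whose median was 0.16. The lower ones made up 19.4% of the pairs of this class and the higher ones 5.56%, beside 6.06% and 6.92% over all pairs. Il2ra, the alpha chain for IL-2, had a 3′ UTR peak of 34.2 in WT (FDR 5.25e-09) and 13.3 in Tyrobp-/- (FDR 0.00145), a log2 ratio of -1.36. Il15ra, which presents IL-15, had 16.6 in WT (FDR 3.98e-71, chr2:11733243-11733899) and 7.36 in Tyrobp-/- (FDR 3.16e-89), a log2 ratio of -1.17. Il21r, the receptor of IL-21, had 1 peak of 13.2 and 5.78 (-1.19) and, in the same 3′ UTR, another of 9.08 and 11.6 (0.35). The 2 pairs of Il21r thus lay on opposite sides of 0. Il2rb was listed at 3.42 in WT and 11.4 in Tyrobp-/- at places that did not overlap, and Il2rg, the chain common to the IL-2, IL-7 and IL-9 receptors, at 6.67 in Tyrobp-/- alone with an FDR of 0.290. Il7r had a 3′ UTR pair of 6.84 and 10.8 (0.66, FDR 3.98e-06 and 3.89e-07), and Il9r was listed at 7.81 in WT and 10.5 in Tyrobp-/- at places that did not overlap.

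Il12rb1, the chain shared by the IL-12 and IL-23 receptors, had the highest member peak of all, with 36.1 in WT (FDR 1.45e-09, chr8:70820585-70821154) and 14.9 in Tyrobp-/- (FDR 3.55e-10), a log2 ratio of -1.28. In the IL-1 family the decoy receptor Il1r2 had an exonic peak of 12.7 in WT (FDR 1e-14) and 4.16 in Tyrobp-/- (FDR 6.31e-11), a log2 ratio of -1.61, and Il1rl2, the IL-36 receptor, a weaker pair of 6.84 and 3.07 (-1.16). The signalling receptor Il1r1 went the other way by less than 2-fold, with a 3′ UTR peak of 16.8 in WT and 22.4 in Tyrobp-/- (0.42) and a second at 6.23 and 5.95 (-0.07). Its accessory chain Il1rap had 8.41 and 9.71 (0.21), and 7.35 and 6.87 (-0.10). Decoy and signalling receptor of IL-1 thus stood on opposite sides of 0 at their main peaks.

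The IL-17 receptors were divided. Il17re was lower in Tyrobp-/- mice (11.7 in WT, 4.29 in Tyrobp-/-, log2 ratio -1.45) and Il17rc was higher (3.58 at an FDR of 0.00234, and 13.7 at an FDR of 3.89e-09, log2 ratio 1.94, chr6:113482814-113483140 in WT). Il17ra, the chain they share, was at 9.03 and 10 (0.15), and Il17rb at 10.2 and 13.6 (0.42). Il17rd, which also restrains FGF signalling, had 1 pair at -0.40 and another at 0.44. The other higher pair of this class was Il3ra, the alpha chain for IL-3, with 5.37 in WT over 61 bases and 18.1 in Tyrobp-/- over 630 bases (1.75).

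Il6st (gp130), the signalling chain of the IL-6 family, stood at 10.2 in WT and 9.0 in Tyrobp-/- over 1801 and 1771 bases of its 3′ UTR (-0.18), with a small peak of 2.16 and 3.49 further on (0.69). Il6ra, which binds IL-6, had 3′ UTR peaks of 20.5 and 31.4 (0.62) and of 11.2 and 12.9 (0.20). Lifr stood at 15.3 in WT and 15.8 in Tyrobp-/- (0.05).

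Its ligand Lif, a cytokine of injury responses and neural stem cells, was higher at each of its 3 pairs. The exonic peak was 3.35 in WT and 12.4 in Tyrobp-/- (1.89), and the 3′ UTR peaks were 10.4 and 15.2 (0.55), and 10.7 and 22.9 (1.10, chr11:4271464-4271764 in WT). The FDR of the last was 4.57e-07 in WT and 1.17e-09 in Tyrobp-/-. Peaks of Lif were split differently in the lists, 5 in WT and 3 in Tyrobp-/-, and the last pair shared 45.5% of the bases of the longer. Lif and Lifr together gave 4 pairs, of which 2 were at least 2-fold higher (50%, beside 6.92% over all pairs).

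For IL-10, Il10ra had a 3′ UTR peak of 12.4 and 14.0 (0.18) and another of 7.08 and 3.81 (-0.89), just short of 2-fold. Il10rb had 2.66 and 2.88 (0.11) in a span that also crosses Ifnar2, and 2.07 and 2.56 (0.31). Il4ra had 8.22 and 5.37 (-0.61), Il13ra1 9.43 and 9.11 (-0.05), and Il20rb 11.4 and 20.4 (0.84). None of these reached 2-fold. Il27ra had a Tyrobp-/- peak of 20 (FDR 6.61e-10) beside a WT peak of 2.93 that it did not overlap, both in a span shared with Palm3. The span of the Tyrobp-/- peak did overlap a WT peak assigned to another gene, so that stretch was not without a peak in WT. Of the synaptic proteins that carry an interleukin receptor name, Il1rapl1 had 5 peaks in WT and 6 in Tyrobp-/-, its main pair at 9.98 and 5.83 (-0.78), and Il1rapl2 had 14.5 and 27.6 (0.93).

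Il34, a ligand of the receptor that keeps microglia alive, had a 3′ UTR peak of 4.15 in WT and 3.94 in Tyrobp-/- (-0.07) beside a weak exonic peak of 6.84 and 9.53 (0.48), and Il33, an alarm signal of glia, had 2.28 and 2.48 (0.12). Il18, a product of inflammasome activity, had 1.68 and 3.26 (0.96), just short of 2-fold, while its inhibitor Il18bp had 5.02 and 5.03 (0.00). Il17d was lower at both its pairs: 23.4 in WT and 10.5 in Tyrobp-/- at the 5′ UTR (FDR 3.98e-16 and 2.82e-08, -1.16, chr14:57524777-57525425) and 11.9 and 9.02 at the 3′ UTR (-0.40). IL-17D is a member of the IL-17 family known from tissues outside the immune system.

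Il16, made by T cells and, in a longer form, by neurons, held the most peaks of all member genes, 9 in WT and 8 in Tyrobp-/-. Of its 6 pairs, 5 lay between -0.32 and 0.87, among them the most certain ones, at 8.79 and 7.05 (-0.32) and at 5.18 and 4.98 (-0.06). The sixth was 7.49 in WT (FDR 2.34e-06) and 23.8 in Tyrobp-/- (FDR 4.17e-06), a log2 ratio of 1.67 (chr7:83651417-83651687 in WT). A difference past 2-fold was therefore found at a single stretch of this transcript. Il4i1 had 1 pair at 7.32 and 26.7 (1.87) and another over the same bases at 7.81 and 6.67 (-0.23), so the 2 overlapping peaks gave different answers, and its remaining pair of 15.5 and 10.9 (-0.51) lay within Nup62. Il7 was listed at 10.7 in WT over 570 bases and at 13.3 in Tyrobp-/- over 361 bases, but these peaks shared only 1 base, so no ratio is read from them.

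In the TNF receptor family 2 of 21 pairs were lower and 2 were higher, with a median of 0.01. Each count is 9.52% of the pairs, where 6.06% of all pairs were lower and 6.92% higher. Tnfrsf1b (TNFR2), a TNF receptor prominent in microglia, had a pair of 3′ UTR peaks next to each other. The 1st was 13.0 in WT and 11.7 in Tyrobp-/- (FDR 1e-152 and 1e-110, log2 ratio -0.15), and the 2nd was 13.4 and 4.89 (FDR 1.26e-36 and 5.01e-15, -1.45, chr4:145215550-145216028 in WT). In WT mice the peaks were of similar height, and in Tyrobp-/- mice the 2nd was below the 1st. Tnfrsf1a (TNFR1), the death domain receptor of TNF, was instead at 7.78 and 10.7 (0.46).

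Tnfrsf25 (DR3), the receptor of TL1A, was higher in Tyrobp-/- mice, with 4.5 in WT (FDR 3.98e-32) and 9.82 in Tyrobp-/- (FDR 6.31e-51), a log2 ratio of 1.13, over peaks of 480 and 211 bases. Tnfrsf13c, the receptor for BAFF on B cells, had a weak pair of 2.93 and 9.53 (1.70, FDR 0.164 and 0.0309). The largest ratio downward was in Tnfrsf22, a decoy receptor of TRAIL, at 31.3 and 6.19 (-2.34). Its 7 WT and 5 Tyrobp-/- peaks overlapped each other in part, and its near-copy Tnfrsf23 had 13.7 and 7.31 (-0.91), so these values are uncertain. Tnfrsf22 had further pairs at 0.35 and 0.58.

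Tnfrsf19 (TROY), a partner of the Nogo receptor found in astrocytes and neural stem cells, had 10.8 in WT and 10.9 in Tyrobp-/- (0.01), with further pairs at 4.63 and 5.39 (0.22) and, at the 5′ UTR, at 4.68 and 3.49 (-0.42). Tnfrsf21 (DR6), which takes part in axon pruning, had low but highly certain peaks of 3.6 and 3.12 (-0.21) and of 3.0 and 3.37 (0.17). Tnfrsf11a (RANK) had 16.5 and 13.3 (-0.31), and its soluble decoy partner Tnfrsf11b (osteoprotegerin) 9.33 and 10.2 (0.13). TNF ligands had 3 pairs only, those of Tnfsf10 (TRAIL) at 9.62 and 8.74 (-0.14) and of Tnfsf13b (BAFF) at 3.94 and 4.96 (0.33) and at 12.7 over 91 bases and 17.2 over 691 bases (0.44).

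Ifnar1, a chain of the type I receptor, stood at 14.6 in WT and 9.98 in Tyrobp-/- (-0.55) and at 9.27 and 8.74 (-0.08), and its partner Ifnar2 at 14.3 and 13.6 (-0.07). For interferon gamma, Ifngr1 was at 6.78 and 9.38 (0.47) and Ifngr2 at 2.91 and 2.75 (-0.08). Only the type III receptor Ifnlr1 passed 2-fold, at 4.1 and 14.3 (1.80) and at 3.32 over 91 bases and 6.67 over 539 bases (1.01), with no FDR of this gene below 1e-05. Of the 8 interferon receptor pairs 2 were thus higher (25%, beside 6.92% over all pairs) and 0 were lower (beside 6.06%).

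Tgfb1, the ligand on which microglial identity depends, had a single peak in each list, at the 5′ UTR: 6.56 in WT (FDR 1.58e-40, chr7:25687181-25687599) and 3.07 in Tyrobp-/- (FDR 1.95e-09, chr7:25687181-25687539), a log2 ratio of -1.10. Tgfb2, a ligand found in neurons and astrocytes, had a 3′ UTR peak of 10.6 and 11.7 (0.14) over 1106 and 1016 bases, and 2 weaker pairs higher in Tyrobp-/- mice, 4.94 and 9.63 (0.96) in an exon and 2.66 and 4.36 (0.71) in the 3′ UTR. Tgfb3 had pairs at 0.10, 0.03 and -0.37, and the peaks of those at 0.10 and -0.37 overlapped each other. Of the receptors, Tgfbr2 had 6.32 and 5.13 (-0.30) and 2.39 and 2.11 (-0.18), and the co-receptor Tgfbr3 6.58 and 4.27 (-0.62), all below WT by less than 2-fold.

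Of 35 member genes with at least 2 pairs, 19 had ratios on both sides of 0 (54.3%), beside 59.4% of the 6121 genes with at least 2 pairs in the series. Among the 21 genes with a pair past 2-fold, 10 had a further pair. In 6 of these (Ccr1, Cxcr4, Il16, Il21r, Il4i1 and Tnfrsf22) another pair pointed the other way. The same count over all genes with a pair past 2-fold is not given here, so 6 of 10 is a description only. The opposing pair shared 13.5% of the bases of the longer peak for Cxcr4, 38.6% for Ccr1 and 78.4% for Il21r. Of the 12 lower pairs 4 were 5′ UTR peaks, those of Cxcr4, Il17d, Tgfb1 and Tnfrsf22, and of the 11 higher pairs 1 was, that of Ccr1. Over all pairs 25.3% of the lower and 20.5% of the higher ones were 5′ UTR peaks.

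Of 24 JAK-STAT genes, which act downstream of cytokine receptors, 22 had a peak in WT and 21 in Tyrobp-/-, and 36 pairs gave 3 higher (8.33%, beside 6.92% over all pairs) and 1 lower (2.78%, beside 6.06%). Higher were Stat2 (3.29 in WT, 6.67 in Tyrobp-/-, log2 ratio 1.02), Tyk2 (2.51 and 5.48, 1.13), both of the type I interferon pathway, and Socs6 (2.32 and 4.96, 1.10). The Socs6 pair was weak, with an FDR of 0.119 in WT. Lower was Cish (4.79 and 2.05, -1.22), which is induced by STAT5 and restrains it.

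Of 34 NF-kB and adaptor genes 29 had a peak in each list, and 51 pairs gave 0 higher, where 6.92% of all pairs were higher, and 5 lower (9.8%, beside 6.06%), with a median of 0.12. Chuk, Irak4, Myd88 and Nfkbia had no peak in either list. The 5 were the ubiquitin-editing inhibitor Tnfaip3 (A20) at 10 and 4.82 (-1.05), the inhibitory kinase homologue Irak3 at 5.43 and 2.54 (-1.10), the death adaptor Fadd at 3.33 and 1.49 (-1.16), Traf2 at 3.52 and 1.72 (-1.03) and Nfkb2 at 15.6 and 7.62 (-1.03). Tnfaip3 was the only one of them with an FDR below 1e-05 in both lists (1.58e-64 and 1e-15).

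All 13 SMAD genes had a peak in both lists, and of 25 pairs 1 was higher (4%, beside 6.92% over all pairs) and 2 were lower (8%, beside 6.06%). Lower were the inhibitory SMADs, Smad6 (9.44 and 3.49, -1.44) and Smad7 (51.3 and 23.0, -1.16), both at the 5′ UTR, and higher was the receptor-activated Smad5 (8.3 and 19.5, 1.23). The Smad6 peak had an FDR of 0.0112 in Tyrobp-/- mice. Of 60 genes of the same families under other symbols, 42 had a peak in WT and 39 in Tyrobp-/-, with 5 of 66 pairs higher (7.58%, beside 6.92%) and 4 lower (6.06%, the same share as over all pairs). Higher were the erythropoietin gene Epo (4.88 at an FDR of 0.0851, and 28.6 at an FDR of 3.98e-12, log2 ratio 2.55), the growth factor receptor Flt3 (4.05 and 15.2, 1.91), the leptin receptor Lepr (14.4 and 46.7, 1.70), the scavenging chemokine receptor Ackr4 (3.79 and 11.2, 1.56) and an exonic peak of Ackr2, also a scavenger (4.23 and 8.58, 1.02). The 3′ UTR peak of Ackr2 was lower (43.9 and 14.6, -1.59), as were those of Epor, the receptor of erythropoietin (11.7 and 3.21, -1.87), and Cd70 (13.7 and 6.67, -1.04). The exonic Ackr2 pair was weak (FDR 0.0295 in WT and 0.102 in Tyrobp-/-), as was the Cd70 peak in Tyrobp-/- mice (FDR 0.29). The remaining lower gene was Csf1r, the receptor of IL-34 and CSF1 and a microglial marker. It had a 3′ UTR peak of 5.66 in WT (FDR 1e-107) and 2.68 in Tyrobp-/- (FDR 1.58e-92), a log2 ratio of -1.08. The 12 microglial markers gave 20 pairs in 9 genes, with a median of -0.04. Of these 0 were higher (beside 6.92% over all pairs) and 1 was lower, that of Csf1r (5%, beside 6.06%).

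The table in which the authors compared the genotypes lists 5640 peaks, and 26 of them (0.461%) belong to 22 member genes. Members held 178 of the 33622 peaks of the WT list and 180 of the 34935 peaks of the Tyrobp-/- list. In it 18 of the 26 (69.2%) lie in 3′ UTRs, against 53.3% of all its peaks. Ccr9 holds 3 rows, Ccr1 and Tnfrsf8 hold 2 each, and Cxcr4, Il2ra, Il3ra, Il17rc, Lif, Tgfb1 and Tnfrsf1b are among the genes with 1. Il12rb1, Il15ra, Il21r, Il1r2 and Il16 have no row in it. Rows were counted by gene name and were not matched to the pairs above. The rule by which peaks entered that comparison is not known here, so having or lacking a row is not read as a result.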

How the data were processed

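MeRIP-seq was made from hippocampal poly(A) RNA of 3 WT and 3 Tyrobp-/- samples, each pooled from 3 mice, with IP and input libraries (12 in all). The authors trimmed reads with fastp, mapped them with HISAT2 to GRCm38 (Ensembl release 96), called peaks with exomePeak on the 3 samples of a genotype together and annotated them with ChIPseeker; whether strand was used in counting is not given in the sources used here. The authors deposited read counts per library and the percent of bases that were G or C. For each peak the authors deposited the p-value of IP against input, with log10 values of the p and FDR (some listed at minus infinity and not printed), and a ratio, the fold enrichment. The authors also deposited a table of peaks compared between genotypes, with log2 fold changes, p-values and FDRs, which were not used; its gene names and annotations were.

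Members were matched by gene name and grouped by role. Peaks of the 2 lists were called overlapping when their spans shared at least 1 bp, introns included. For ratios, peaks of the same gene were paired where exonic blocks overlapped by at least 1 bp and each was the other's best match, and log2 of the fold enrichment in Tyrobp-/- over WT was taken. A ratio past 2-fold is a size, not a test: a peak has 1 value over pooled samples, and the depth behind a single peak is unknown. A peak and its ratio also move with the extent called. Of the 97 names, 97 matched RefSeq genes (GRCm38.p6), 96 of them in position as well; Il4i1 matched by symbol only. DRACH was searched in the first 50 transcribed bases, where a peak covered at least 40.

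Genes were named where a pair passed 2-fold, where they had the highest peaks of a role, where they are textbook members or had peaks in 1 list only, or where they had at least 3 peaks in a list; 1 gene that this rule names is not reported here. Members, pathway lists and rules were chosen with earlier results of these data known. Alternatives were an FDR below 1e-05, a fold enrichment of at least 4, leaving out Il1rapl1 and Il1rapl2, 1 peak or value per gene, a reciprocal overlap of 50%, overlap of exonic blocks, a threshold of 1.5-fold and centring; leaving out peaks within other coding genes, and pairs with an FDR below 1e-05 that share 50% of the longer peak, were added after seeing the data. The pairing was tested on simulated data. Python 3.11.15, pandas 2.3.3, numpy 2.4.6, scipy 1.17.1 and matplotlib 3.10.9 were used.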

Additional observations from a re-analysis of the deposited data

How the results depend on the processing

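No paired analysis was possible because each peak has 1 value over the pooled samples of a genotype, and for the same reason no sample could be left out in turn. Of 66 alternative values, 44 stayed within 1.5 times the reported count or within its 95% interval. With an FDR below 1e-05, WT member peaks numbered 100 and Tyrobp-/- 106, and the WT median fold enrichment was 7.84. The 3′ UTR shares were then 75% and 77.4%, and the shares overlapping the other list were 91.0% and 87.7%. Genes in 1 list only were 3 in WT (4.69%, beside 7.31% over all genes) and 5 in Tyrobp-/- (7.81%, beside 8.29%). All of these except Tnfsf9 had peaks in both lists before that cut. With a fold enrichment of at least 4 the medians were 7.81 in WT and 8.74 in Tyrobp-/-. With 1 peak per gene they were 9.07 and 9.53, and the WT 3′ UTR share was 79.1%. Under a reciprocal overlap of 50%, 51.7% of WT and 51.1% of Tyrobp-/- member peaks overlapped. The overlap shares of all peaks under these alternatives are not given here, so those of member peaks are descriptions only. Pairs higher in Tyrobp-/- mice numbered 26 of 121 at 1.5-fold and 4 of 98 with a reciprocal overlap of 50%. They numbered 4 of 84 with an FDR below 1e-05 and 1 of 79 with both conditions. Pairs lower in Tyrobp-/- mice stayed between 8 and 18. Over all pairs 3789 of 23683 were higher and 3127 lower at 1.5-fold. With a reciprocal overlap of 50%, 1015 of 19366 were higher and 837 lower. The median log2 ratio turned to -0.01 with an FDR below 1e-05 and to -0.02 with both conditions. The cause of these differences was not tested, and stricter settings also leave fewer peaks or pairs.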
